A study of Caenorhabditis elegans with 6 samples.

Results

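Removal of the 5′ cap takes an mRNA out of translation and opens it to exonucleases that degrade it from that end, although some decapped mRNAs are kept and capped again. In *C. elegans* the cap is hydrolysed by DCAP-2 with its cofactor DCAP-1, usually after deadenylases have shortened the poly(A) tail, and microRNA Argonautes recruit the same machinery to the transcripts they silence. Decapping factors and translational repressors gather with their target mRNAs in cytoplasmic granules known as P-bodies, and related granules hold maternal mRNAs in the germline.

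The 6 genes described here encode parts of this machinery: *dcap-1* and *dcap-2* (the decapping holoenzyme), *cgh-1* (a decapping activator), *ccf-1* (a deadenylase), and *alg-1* and *alg-2* (microRNA Argonautes). They were taken by WormBase identifier from the 17397 genes of the deposited table, and all 6 were found there. The table carries no gene names. The identifier of *dcap-1* is paired with its name in the tables of the study, whereas those of the other 5 were given with the names at selection and were not checked against an annotation.

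Wild-type N2 worms (wt) were compared with *dcap-1(tm3163)* worms, which carry a reduction-of-function allele and are called *dcap-1(rf)* below. The single mutants of the study had been crossed back to N2. There were 3 populations of 200 to 300 whole adult worms per strain, aged 9 days, and each population gave 1 Affymetrix GeneChip. Both strains were kept at 20 °C on *E. coli* OP50, UV-killed according to the methods, with 10 µg/mL of the DNA synthesis inhibitor FUDR, which prevents the growth of progeny. The values are RMA expression estimates on a log2 scale, 1 per gene and array, so that a difference of 1 is a doubling. Whole worms were measured, and fewer cells of a type cannot be told apart from less RNA per cell.

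The lesion of *tm3163* lies in the gene that is measured first below. The study lists a primer pair for genotyping *dcap-1*, a gene on chromosome IV, and tracked mutations by PCR or by phenotypic selection. The designed sequences are shown here and were not mapped to the genome or to the lesion. They are written 5′ to 3′:
dcap-1 forward: cgacgaagcctttgcatg
dcap-1 reverse: tatttagacgccgattgagtg
The forward primer has 18 bases and the reverse primer 21. Where the probes of the array lie relative to the lesion was not analysed here, so the level of *dcap-1* is a measurement of signal from those probes and does not by itself check the genotype.

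Each array had a median of 2.18 to 2.24, and any pair of arrays correlated across genes with Pearson's r of 0.990 to 0.997. Strains were compared with limma over the 13047 genes that remained after the 25% with the lowest averages had been removed, and all 6 genes passed this filter. Over these genes the median standard error of a log2 fold change was 0.10, and the median log2 fold change was -0.02. A gene is called differentially expressed when its p, adjusted by Benjamini and Hochberg over all 13047 genes, is under 0.05. With 3 arrays in each strain, the smallest p an exact permutation test can reach is 0.10.

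Of the 6 genes, *dcap-1* was the only one differentially expressed, and it was lower in *dcap-1(rf)*. Its identifier was taken from the study's list of differentially expressed genes, drawn from these same arrays. Its call was therefore known beforehand and is not an independent finding. In the background, 211 of the 13047 genes tested (1.62%) were called in either direction and 21 (0.161%) as lower. It was also the only one of the 6 with an unadjusted limma p under 0.05, a level reached by 13.8% of all genes tested. All 6 genes had negative log2 fold changes, as had 55.4% of the genes tested, and the median of the 6 was -0.07.

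*dcap-1* (WBGene00021929_at; chromosome IV, 1052524 to 1054794 in WBcel235, with 1 RefSeq transcript) encodes the activating cofactor of the holoenzyme. Its log2 expression was 5.44, 5.30 and 5.26 in wt replicates 1, 2 and 3 and 4.50, 4.52 and 4.65 in *dcap-1(rf)* replicates 1, 2 and 3. The groups did not overlap, with the mutant entirely below wt, as in 9.67% of the genes tested. The lowest wt array was 0.61 above the highest mutant array, whereas the arrays of a strain spanned 0.17 in wt and 0.15 in the mutant. The log2 fold change was -0.77 (95% interval -0.97 to -0.58), which puts the mutant at 58.5% of the wt level on the linear scale (51.2% to 66.9%), with adjusted p = 0.00469 from limma. In size, 1.48% of the genes tested changed more. The signal left in the mutant had a mean of 4.56 ± 0.08 (SD, n = 3), against 5.33 ± 0.09 in wt (SD, n = 3).

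*dcap-2* (WBGene00003582_at; chromosome IV, 13513369 to 13521870, with 4 RefSeq transcripts) encodes the catalytic subunit, a Nudix hydrolase. Its log2 expression was 4.25, 4.25 and 4.18 in wt replicates 1, 2 and 3 and 4.13, 4.17 and 4.25 in the 3 *dcap-1(rf)* arrays. A pair of mutant arrays lay just below the wt arrays and the third was at their upper end, so the groups overlapped. Between the strains *dcap-2* differed by -0.04 on the log2 scale (95% interval -0.21 to 0.12, adjusted p = 0.825 from limma), and 75.9% of the genes tested changed more. The interval corresponds to a mutant level between 86.4% and 109.0% of wt. Wt replicates 1 and 2 and *dcap-1(rf)* replicate 3 shared exactly the same deposited value, a tie of at least 3 arrays that was seen in 736 of the genes tested.

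**Figure D1:**
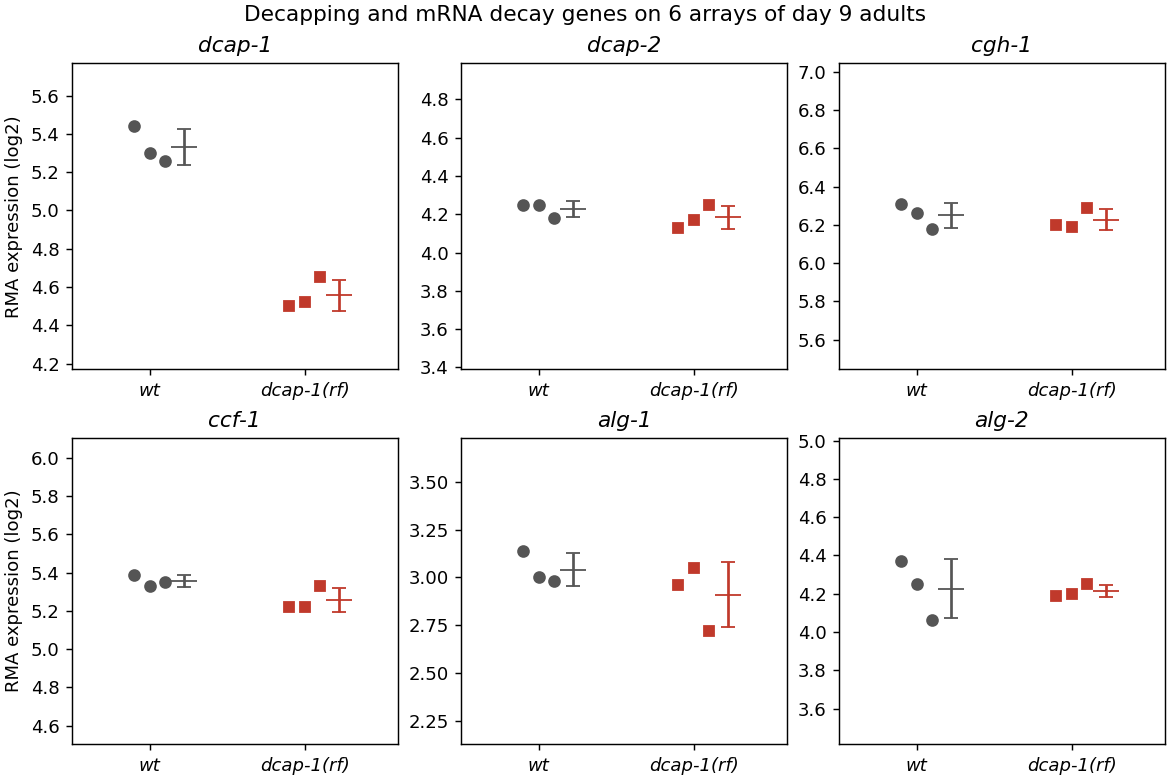
RMA expression (log2, vertical axis of the same length in every panel) of the 6 genes on each array of wt (circles, replicates 1 to 3 from left to right) and *dcap-1(rf)* (squares); bars are the mean ± SD of 3 arrays. The groups are apart for *dcap-1*, with means of 5.33 in wt and 4.56 in *dcap-1(rf)*, and overlap or touch for the other 5.

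*cgh-1* (WBGene00000479_at; chromosome III, 7495320 to 7497832) encodes a DEAD-box RNA helicase that activates decapping and is also known for protecting maternal mRNAs in germline granules. Log2 expression was 6.31, 6.26 and 6.18 in wt and 6.20, 6.19 and 6.29 in *dcap-1(rf)*. Every mutant array lay inside the range of the wt arrays. For *cgh-1* the difference was -0.02 (95% interval -0.19 to 0.15, adjusted p = 0.93 from limma), and the mutant mean was 6.23 ± 0.05 against 6.25 ± 0.07 in wt (SD, n = 3 each). Its sign turned without wt replicate 1, where it was 0.01.

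*ccf-1* (WBGene00000369_at; chromosome III, 11918828 to 11920237) encodes a catalytic deadenylase of the CCR4-NOT complex, which acts upstream of decapping. Its log2 expression was 5.39, 5.33 and 5.35 in wt and 5.22, 5.22 and 5.33 in *dcap-1(rf)*. *dcap-1(rf)* replicates 1 and 2 lay below all wt arrays, and replicate 3 had the same deposited value as wt replicate 2, so the groups touched. The wt arrays were close together, with an SD of 0.03, and the difference of -0.10 was larger than that SD and than the 0.07 of the mutant arrays. It was not called (95% interval -0.26 to 0.07, adjusted p = 0.588 from limma), and 50.8% of the genes tested changed more.

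The Argonautes *alg-1* and *alg-2* bind microRNAs and have overlapping functions in development. *alg-1* (WBGene00000105_at; chromosome X, 13949489 to 13956261, with 2 RefSeq transcripts) had log2 expression of 3.14, 3.00 and 2.98 in wt and 2.96, 3.05 and 2.72 in *dcap-1(rf)*. The lowest array was *dcap-1(rf)* replicate 3, and *dcap-1(rf)* replicate 2 fell among the wt arrays. *alg-1* differed by -0.13 (95% interval -0.37 to 0.11, adjusted p = 0.613 from limma), and it was -0.04 without *dcap-1(rf)* replicate 3. The mutant SD of 0.17 was the highest of the 6 genes.

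*alg-2* (WBGene00000106_at; chromosome II, 873212 to 879885, with 2 RefSeq transcripts) had log2 expression of 4.37, 4.25 and 4.06 in wt and, in *dcap-1(rf)* replicates 1 and 3, 4.19 and 4.25, with replicate 2 between them. The spread lay in wt, where the arrays covered 0.31, and the mutant arrays covered 0.06 within that range. The difference between the strains was -0.01 (95% interval -0.23 to 0.20, adjusted p = 0.957 from limma), the smallest in size of the 6, with 92.1% of the genes tested changing more. Without wt replicate 1 it was 0.06. The Argonautes are paralogs, and signal shared between them on the array was not separated here.

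The change of *dcap-1* was set against that of each other gene by taking the difference of both log2 values on every array. Relative to *dcap-2*, *dcap-1* changed by -0.73 between the strains, with an SD of the difference between arrays of 0.07 in wt and 0.03 in *dcap-1(rf)* (n = 3 each). The corresponding changes were -0.75 against *cgh-1*, -0.68 against *ccf-1*, -0.64 against *alg-1* and -0.76 against *alg-2*. In all 5 pairs the highest mutant array lay below the lowest wt array. The pairs all used the same *dcap-1* values, whose groups were already 0.61 apart, so they were not independent. Their separation followed from that gap and from the small changes of the other genes. The two-sided exact permutation p was 0.10 in each pair, and 0.10 after adjustment over the 5 pairs, the smallest that 3 arrays against 3 can give. None of the 95% intervals of the other 5 genes reached a fall as large as that of *dcap-1*, and the lowest bound was -0.37, for *alg-1*. Since the call of *dcap-1* was known beforehand from these same arrays, this contrast is only a description.

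**Figure D2:**
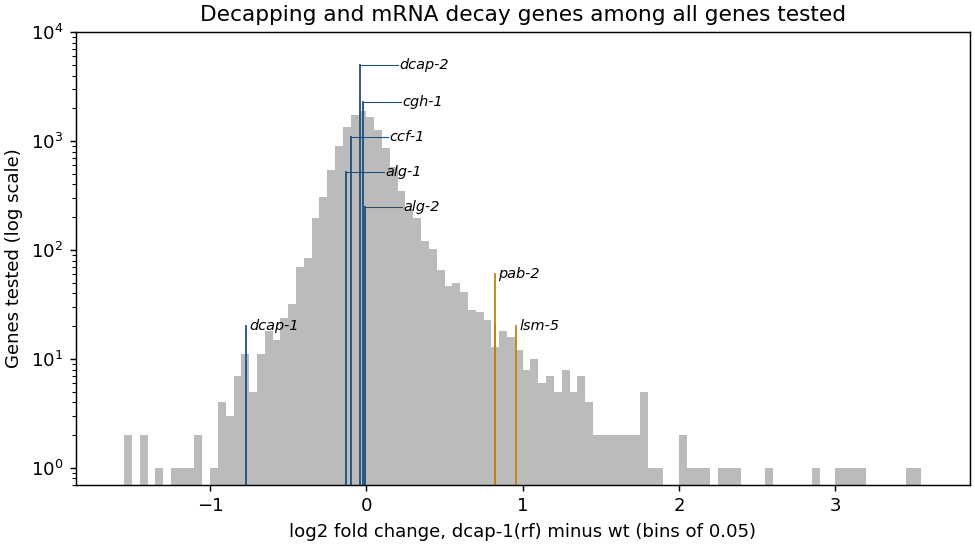
Number of genes tested (log scale) by log2 fold change between *dcap-1(rf)* and wt in bins of 0.05; blue lines mark the 6 genes and gold lines *lsm-5* and *pab-2*, and the heights of the lines only place the names. *dcap-1* stands at -0.77 in the lower tail, while the other 5 lie between -0.13 and -0.01, in the centre of the distribution.

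Other genes of mRNA decay and cap recognition were looked up in 6 lists of 83 symbols in all. Identifiers could be matched for 17 symbols, the 6 genes above and 11 others, because names were taken from the tables of the study. The part of those tables used here names genes that were called there or had a positive fold change. That all 11 were higher in *dcap-1(rf)* was therefore fixed by the naming. Only 1999 names were paired with identifiers, whereas 44.6% of all genes tested were higher, so many higher genes had no name. The smallest log2 fold change of the 11 was 0.17, for *smg-2* and *ife-2*. The naming may thus have favoured larger changes and lower p-values. The direction, sizes and counts of the 11 are given only as a description. 3 of the 11, *lsm-5*, *pab-1* and *pab-2*, are on the list of differentially expressed genes that the study drew from these same arrays. None of the 19 exonuclease symbols, which include *xrn-1* and the exosome subunits, had an identifier, and they were not analysed here.

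Among the 7 genes found on the list of decapping and its activators, 1 was called higher and 1, *dcap-1*, lower. Over all genes tested, 1.46% were called higher and 0.161% lower. Both called genes are on the study's list of differentially expressed genes from these same arrays, so the counts are only a description. The gene called higher, *lsm-5*, encodes a subunit shared by the cytoplasmic Lsm ring that promotes decapping and the nuclear Lsm ring of the spliceosome. On chromosome V (15570380 to 15570655), its log2 expression was 6.54, 6.54 and 6.56 in wt and 7.38, 7.48 and 7.67 in *dcap-1(rf)*. The wt arrays were nearly identical, with an SD of 0.01, and every mutant array lay at least 0.82 above them. The log2 fold change was 0.96 (95% interval 0.75 to 1.17, adjusted p = 0.00249 from limma), or 195% of the wt level. It was larger in size than that of *dcap-1*, a difference that was not tested, and the call of *lsm-5* held whichever array was removed. The median over the 7 genes was 0.20, against -0.02 over all genes tested, but 4 of the 7 had names only through a call or a positive fold change, which raises it, and nothing is read from it.

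The other Lsm genes with an identifier were not called. *lsm-1*, whose product is found only in the cytoplasmic ring, had log2 expression of 6.47, 6.47 and 6.65 in wt and 6.64, 6.81 and 6.76 in *dcap-1(rf)*, which is a difference of 0.21 (adjusted p = 0.333 from limma). *lsm-3*, whose product belongs to both rings, had 6.36, 6.31 and 6.42 in wt and 6.56, 6.54 and 6.57 in the mutant, which is a difference of 0.20 (adjusted p = 0.27 from limma). The groups overlapped for *lsm-1* and did not for *lsm-3*, a separation seen upwards in 8.93% of all genes tested. Whether *lsm-5* changed more than *lsm-1* and *lsm-3* was not tested. *eol-1*, which is related to the mammalian DXO decapping exonuclease, had a log2 fold change of 0.28 with a 95% interval from -0.03 to 0.59.

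**Figure D3:**
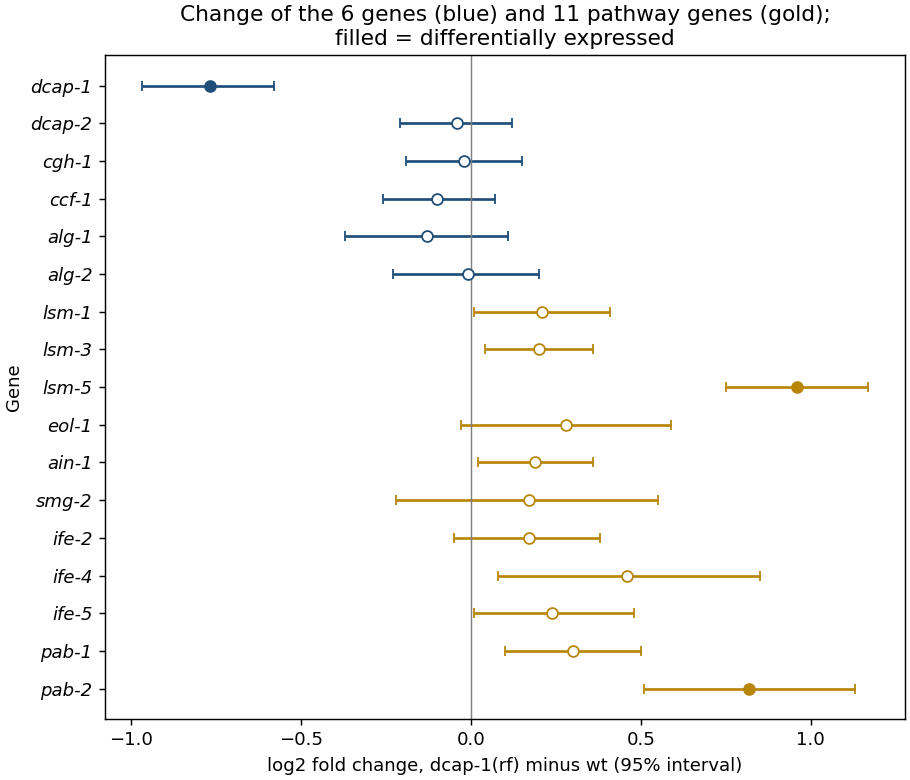
Log2 fold change (*dcap-1(rf)* minus wt, horizontal axis) with its 95% interval for the 6 genes (blue) and the 11 other pathway genes with an identifier (gold); filled points are differentially expressed. *dcap-1* at -0.77, *lsm-5* at 0.96 and *pab-2* at 0.82 are filled, and the gold genes all lie above 0 because of how they were named.

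The opposite ends of an mRNA are bound by eIF4E proteins at the cap and by poly(A)-binding proteins at the tail. Of the 5 such genes with an identifier, which had names only because they were higher or called in the tables, 1 was called, *pab-2*; over all genes tested 1.46% were called higher. Its log2 expression was 6.37, 6.21 and 6.15 in wt and 7.20, 7.20 and 6.77 in *dcap-1(rf)*. The groups did not overlap, and *dcap-1(rf)* replicate 3 was the lowest of the mutant arrays. The log2 fold change was 0.82 (95% interval 0.51 to 1.13, adjusted p = 0.0274 from limma). The call depended on which arrays were kept: with any 1 wt array, or with *dcap-1(rf)* replicate 1 or 2, removed, it was lost, at an adjusted p from limma of 0.0886, 0.145 and 0.112 (wt replicates 1, 2 and 3) and of 0.114 and 0.118 (*dcap-1(rf)* replicates 1 and 2). With *dcap-1(rf)* replicate 3 removed it held, at 0.00649 from limma.

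*pab-1*, the paralog of *pab-2*, had log2 expression of 7.93, 7.91 and 7.72 in wt and 8.07, 8.22 and 8.17 in *dcap-1(rf)*. The groups did not overlap, and the log2 fold change of 0.30 was not called (adjusted p = 0.181 from limma). The study lists *pab-1* as differentially expressed on these same arrays, so the fit used here differs from the study for this gene. The reason was not tested. Signal shared between the paralogs was not separated. The eIF4E genes *ife-2*, *ife-4* and *ife-5* had log2 fold changes of 0.17, 0.46 and 0.24, and limma called none of them. *ife-4* and *ife-5* had an unadjusted limma p under 0.05, as had 13.8% of all genes tested. The way these eIF4E genes were named favours such values. *ife-4* had the widest wt spread of these, from 1.53 to 2.17, and was called with 2 components of the residuals as covariates (adjusted p = 0.0428 from limma, in a range up to 0.302 over the alternatives with all arrays).

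**Figure D4:**
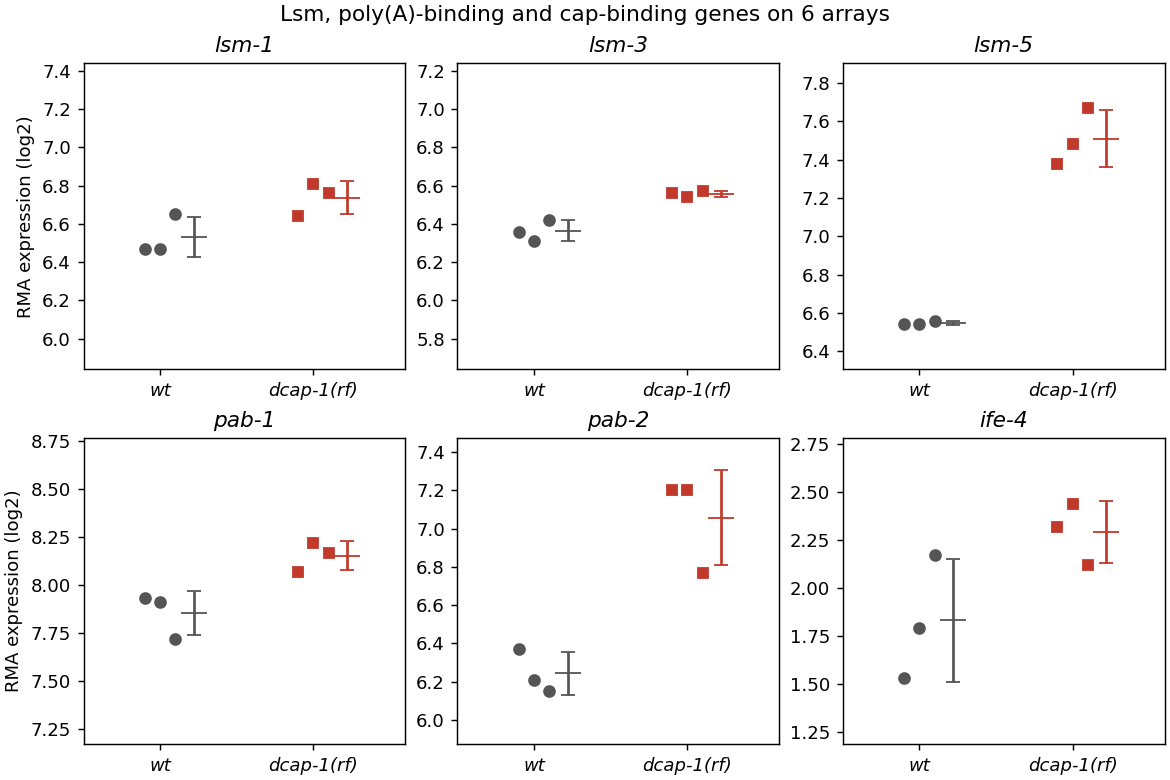
RMA expression (log2) of 3 Lsm genes, both poly(A)-binding protein genes and *ife-4* on each array of wt (circles) and *dcap-1(rf)* (squares); bars are the mean ± SD of 3 arrays, and the vertical axes have the same length. The *lsm-5* arrays form tight, separate groups around 6.55 and 7.51, and *pab-2* is separate with a wider mutant group.

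For the microRNA pathway, *ain-1* joined the Argonautes as the other gene with an identifier. It encodes a GW182-family protein that links Argonautes to deadenylation, and its log2 fold change was 0.19 (95% interval 0.02 to 0.36, adjusted p = 0.309 from limma). For nonsense-mediated decay, *smg-2*, the worm gene for the UPF1 helicase, had a log2 fold change of 0.17 with wt arrays at 4.70, 4.57 and 4.02. Wt replicate 3 stood below the others, and without it the log2 fold change was -0.04. For deadenylation, *ccf-1* was the single gene with an identifier. Limma called none of *ain-1*, *smg-2* and *ccf-1*. Of them 1, *ain-1*, had an unadjusted limma p under 0.05, as had 13.8% of all genes tested. Both *ain-1* and *smg-2* had names only because they were higher or called in the tables of the study. Such naming favours low p-values, so the share over all genes is not a like background for them. Of all 11 other genes with an identifier, 8 had an unadjusted limma p under 0.05.

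Of 45 markers of 9 tissues or stages, 12 had an identifier, again only genes named as higher or called in the tables. That all 12 were higher in *dcap-1(rf)* was therefore fixed by the naming. The naming may also have favoured larger changes, as the smallest log2 fold change of the 12 was 0.16, for *snb-1*. Of these 12, *asp-1* and *ifb-2* of the intestine were called higher, where 1.46% of all genes tested were. An identifier was found for 4 of 6 intestinal, 4 of 4 body wall muscle, 2 of 5 neuronal, 1 of 4 hypodermal and 1 of 6 sperm markers. Where markers of a tissue are missing, the values below do not show whether the tissue as a whole was higher. The summed log2 level of the 4 intestinal markers found was 23.48 to 24.26 in wt and 25.44 to 25.93 in *dcap-1(rf)*. That of the 4 body wall muscle markers was 17.59 to 18.27 in wt and 17.88 to 20.35 in *dcap-1(rf)*. The 2 neuronal markers found summed to 10.02 to 10.24 in wt and 10.43 to 10.75 in the mutant. The hypodermal marker *col-19* was at 5.08, 5.10 and 5.08 in wt and 5.63, 6.12 and 5.37 in the mutant, and *fog-3*, used for sperm, at 3.54, 3.60 and 4.05 and at 4.25, 3.74 and 4.54. No identifier was available for the 12 germline and oocyte markers. The part of tissue composition in the levels of *lsm-5*, *pab-2* or *dcap-1* was not tested.

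The genes whose profiles were most like that of *dcap-1* were found by the root mean square difference of log2 values over the 6 arrays, after each gene's own mean had been subtracted. The closest was *F36D3.1*, at a difference of 0.068, with log2 expression of 4.15, 4.09 and 4.08 in wt and 3.21, 3.15 and 3.31 in *dcap-1(rf)*. It was followed by *Y119D3B.13* at 0.096, *srsx-26* at 0.134, *C17H12.6* at 0.139 and the unnamed WBGene00022829 at 0.139. Their log2 fold changes were -0.88, -0.74, -0.53, -0.60 and -0.63, and the first 4 were called lower, against 0.161% of all genes tested; both follow from their choice by likeness to a gene that was itself lower and called.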

How the data were processed

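Total RNA (150 ng) of each population was labelled and hybridized to 1 array. The authors deposited log2 values, made by RMA at its defaults on BrainArray ENSG 21.0.0 probe sets; the submitters' processing notes name R 3.3.0 and WBcel235. Surrogate variable analysis is named in the methods without a number of variables, and whether the deposited log2 values carry that correction is not given in the sources used here. With strain as the sole term, every gene was fitted with limma 3.58.1 in R 4.3.3, the 25% of genes with the lowest averages were removed before eBayes, and p-values were adjusted over the 13047 genes kept; intervals are the moderated 95% ones. The model was checked on simulated data. Levels of different genes were not ranked; the difference of 2 genes on each array served only to compare their changes between the strains, and was tested by exact permutation, two-sided, with scipy 1.17.1. The members, lists and tests were chosen with earlier results of these data known. Named genes are the 6 members, from each list the called genes and otherwise those with the largest and smallest change, and the 5 profiles nearest to *dcap-1*; the remaining list genes with an identifier were added after their values were seen. Names came from Tables of the study and positions from the RefSeq annotation of WBcel235, for 1998 of 1999 named genes; the table values themselves were not used. Alternatives were other filters, a trended robust prior, residual components, centring, quantile normalization, weighting of arrays, a block on replicate number, and removal of each array in turn. RMA values hold no detection calls, so low values are not known to lie above background, and the number of arrays limits the precision.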

Additional observations from a re-analysis of the deposited data

How the results depend on the processing

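*dcap-1* was called in all 9 alternatives with all arrays, with log2 fold changes from -0.81 to -0.76 (adjusted p from limma 0.00283 to 0.0165), and in the 6 fits without an array (-0.82 to -0.72). *dcap-2*, *cgh-1*, *ccf-1*, *alg-1* and *alg-2* were called in none. With an array left out, the log2 fold change ranged from -0.06 to 0.01 for *cgh-1* and from -0.10 to 0.06 for *alg-2*; the sign turned without wt replicate 1 (0.01 and 0.06), and for *smg-2*, which ranged from -0.04 to 0.30, without wt replicate 3 (-0.04). Genes called higher numbered 327 with 2 residual components and 75 to 280 with an array left out. Genes called lower numbered 54 with 1 component, 84 with 2, 35 with centred arrays, 34 after quantile normalization, 35 with array weights, 33 with the replicate number as a block, and 9 to 26 with an array left out. Cap and poly(A) binding genes called numbered 2 with 2 components and 0 to 1 with an array left out. The cause of these shifts was not tested. Deviations of same-numbered arrays correlated at 0.0552, 0.101 and 0.139, and every array correlated best with its own number, a hint from the data and not from the design; the block changed the call of none of the 6 genes. No value was obtained for the exonuclease list, which had no identifier.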
